A study of Mus musculus with 16 samples.

Results

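The genes described here are 34 mouse genes of the endoplasmic reticulum (ER) chaperones and the unfolded protein response. They were measured in neuroblastoma xenografts with mouse probes, which are meant to read the host compartment. Each gene was represented by the probe set whose platform annotation named that gene alone, and by the brightest of them over the tumors where there were several. 33 of the 34 genes had such a probe set, among 22179 genes that had one on the array, and Pdia4 had no value because its only probe set also named a microRNA. The platform listed Ero1lb as Ero1b and Selk as Selenok. The arrays came from 16 tumors of LA-N-1 cells, a human neuroblastoma line with MYCN amplification, grown subcutaneously in Matrigel in female athymic Nude-Foxn1 nu/nu mice of 4 to 6 weeks. The mice received vehicle (8 tumors, numbered 5 to 12) or cinacalcet, an allosteric activator of the calcium-sensing receptor CaSR (8 tumors, numbered 4 to 11), by oral gavage until the tumors reached the size limit. Cinacalcet tumor 6 was left out of the comparisons, as the methods prescribe. The study judged it an outlier by its distance from other arrays and its distribution of intensities. Tumors 9 to 11, which the study described as treated for longest, form the prolonged group (n = 3), and tumors 4, 5, 7 and 8 the shorter group (n = 4). Length of treatment was not assigned, since each tumor was excised when it reached the limit, so prolonged treatment and slow growth cannot be told apart. In each group the study took for the arrays the 8 tumors that were excised last. Vehicle tumors were not matched to the prolonged tumors in time, so time in the mouse cannot be told apart from treatment either.

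The ER folds and modifies secreted and membrane proteins. When unfolded proteins accumulate there, the chaperone BiP (Hspa5) leaves the sensors IRE1 (Ern1), PERK (Eif2ak3) and ATF6 (Atf6). IRE1 splices Xbp1 mRNA and ATF6 is cleaved to a transcription factor, and both routes raise chaperones, disulfide enzymes and the ER-associated degradation machinery. PERK phosphorylates eIF2-alpha, which favours translation of ATF4 and through it transcription of CHOP (Ddit3), Trib3, Chac1 and Ppp1r15a. Fibroblasts, macrophages and plasma cells, all of which secrete, carry much of this machinery in host tissue.

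Both routes read short promoter motifs, and the promoters of 7 members are shown because they carry these motifs and because these genes had unadjusted p-values under 0.05 in a comparison below. The factors ATF6 and XBP1 act through the ER stress response element (ERSE, CCAAT and CCACG with 9 bases between them) and the shorter ERSE-II (ATTGG and CCACG with 1 base between them), XBP1 and ATF6 also through the UPRE (TGACGTGG), and ATF4 with its C/EBP partners through the CARE (TGATGNAAN). The 250 bases before the RefSeq start sites (build GRCm38.p6) were searched on both strands, and 28 of the 33 members had a promoter there (Hyou1, Manf, Derl1, Atf6 and Spcs3 did not). An ERSE lay in 37 of 32851 promoters (0.113%) and in those of 10 members, namely Hspa5, Hsp90b1, Calr, Canx, Dnajc3, Creld2, Pdia6, Ero1lb, Syvn1 and Derl3. The ERSE-II was found in 10 promoters (0.0304%), that of Herpud1 among them, the CARE in 1129 (3.44%), those of Herpud1 and Chac1 among them, and the UPRE in 185 (0.563%) and in none of the members'. No matches overlapped in the members. In the sequences, 5′ to 3′ on the strand of the gene, the fixed letters of each match are in capitals.
Hspa5 (chr2:34771840-34772089, plus strand), 1 ERSE: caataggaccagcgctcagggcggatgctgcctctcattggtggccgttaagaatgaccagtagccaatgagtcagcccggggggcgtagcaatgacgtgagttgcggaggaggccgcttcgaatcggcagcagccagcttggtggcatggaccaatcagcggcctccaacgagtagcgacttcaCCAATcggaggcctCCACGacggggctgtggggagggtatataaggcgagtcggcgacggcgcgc
Calr (chr8:84846932-84847181, minus strand), 1 ERSE on the opposite strand: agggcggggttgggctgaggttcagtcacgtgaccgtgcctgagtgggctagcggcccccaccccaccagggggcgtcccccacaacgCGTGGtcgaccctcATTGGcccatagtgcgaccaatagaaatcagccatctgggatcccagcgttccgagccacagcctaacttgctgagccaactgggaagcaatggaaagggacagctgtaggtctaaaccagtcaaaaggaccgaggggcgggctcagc
Dnajc3 (chr14:118937682-118937931, plus strand), 1 ERSE: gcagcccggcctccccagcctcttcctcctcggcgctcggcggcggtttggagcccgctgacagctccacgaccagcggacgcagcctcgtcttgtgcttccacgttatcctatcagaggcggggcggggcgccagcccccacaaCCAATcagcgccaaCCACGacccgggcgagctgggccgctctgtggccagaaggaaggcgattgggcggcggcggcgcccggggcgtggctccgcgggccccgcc
Creld2 (chr15:88819396-88819645, plus strand), 1 ERSE on the opposite strand: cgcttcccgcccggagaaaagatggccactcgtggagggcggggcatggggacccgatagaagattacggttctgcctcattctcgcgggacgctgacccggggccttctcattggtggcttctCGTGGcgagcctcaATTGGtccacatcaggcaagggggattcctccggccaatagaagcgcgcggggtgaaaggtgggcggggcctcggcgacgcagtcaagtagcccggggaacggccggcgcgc
Ero1lb (chr13:12565633-12565882, plus strand), 1 ERSE on the opposite strand: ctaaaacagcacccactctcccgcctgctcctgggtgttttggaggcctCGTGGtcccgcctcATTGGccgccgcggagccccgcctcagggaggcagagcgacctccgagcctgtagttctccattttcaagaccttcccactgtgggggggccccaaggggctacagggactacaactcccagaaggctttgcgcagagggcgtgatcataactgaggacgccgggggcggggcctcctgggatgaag
Herpud1 (chr8:94386179-94386428, plus strand), 1 CARE on the opposite strand and 1 ERSE-II: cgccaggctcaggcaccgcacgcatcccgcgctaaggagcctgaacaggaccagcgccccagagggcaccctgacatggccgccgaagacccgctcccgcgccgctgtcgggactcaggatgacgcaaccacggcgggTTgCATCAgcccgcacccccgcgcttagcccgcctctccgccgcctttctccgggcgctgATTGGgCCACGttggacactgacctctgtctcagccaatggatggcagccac
Chac1 (chr2:119350992-119351241, plus strand), 1 CARE on the opposite strand: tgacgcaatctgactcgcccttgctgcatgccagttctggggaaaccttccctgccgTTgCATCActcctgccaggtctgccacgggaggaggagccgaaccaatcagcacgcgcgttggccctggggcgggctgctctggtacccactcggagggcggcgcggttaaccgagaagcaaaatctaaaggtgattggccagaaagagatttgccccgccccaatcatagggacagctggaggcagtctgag
The Hspa5 element lay 65 to 47 bases before the start, that of Dnajc3 105 to 87, that of Creld2 126 to 108 and that of Calr 162 to 144. A match is a description of the letters, not of binding.

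**Figure D1:**
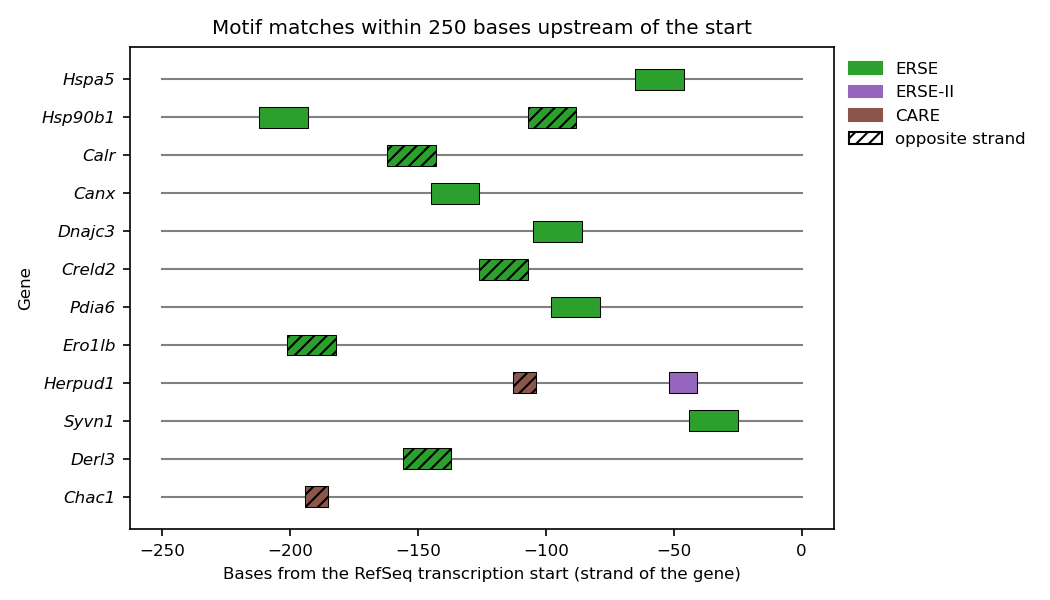
Motif matches in the 250 bases upstream of the RefSeq start of 12 members (x axis, bases from the start on the strand of the gene). Green bars are ERSE, purple ERSE-II and brown CARE matches, and hatched bars lie on the opposite strand. Hsp90b1 is the member with 2 ERSE matches.

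Values are log2 signals, on which 1 unit is a doubling, and they compare tumors for 1 probe set, not genes with each other. Members ranged in mean signal over the 15 tumors from 1.09 (Trib3) to 7.97 (Hsp90b1), where the median over all probe sets was 1.69, and 31 of 33 lay above that median. As a check of the labelled tissue, fibroblast markers (10 genes) averaged 6.29 ± 1.18 (SD, n = 8) and macrophage markers (10 genes) 5.52 ± 0.98 in vehicle tumors and 12 genes of unrelated tissues 1.31 ± 0.17, values of different probes that give no ratio of levels. Binding of human tumor RNA to these mouse probes was not measured. In bulk tumors, fewer cells of a type and less RNA per cell cannot be told apart. Nothing in the labels says that the 16 tumors came from separate mice, and p-values measure the spread between these samples.

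No member passed the test at an adjusted p under 0.05 in any of the 4 comparisons (limma, Benjamini-Hochberg over 40543 probe sets), as no probe set on the array did (0%), although 2070 probe sets had an unadjusted p under 0.05 in all cinacalcet and 2893 in prolonged against vehicle tumors. Counts at an unadjusted p under 0.05 are given as a description. 25 of the 33 members had a higher mean in all cinacalcet tumors than in vehicle tumors. So had 48.3% of all genes and 79.6% of the 1304 genes with a mean signal over 5, a signal that 12 members had. The median log2 fold change was 0.22 over the members, -0.01 over all genes and 0.17 over the 1304 genes. 3 members were higher at an unadjusted p under 0.05 (Pdia3, Derl1 and Spcs3), where 1.86% of all genes were, and 0 were lower, where 2.57% of all genes were. The count of 3 became 5 without vehicle tumor 12. Between prolonged and vehicle tumors the median over the members was 0.42 against -0.05 over all genes and 0.29 over the genes with a mean signal over 5, and between shorter and vehicle tumors it was 0.06 against 0.01 and 0.08. The comparisons with vehicle share the same 8 vehicle tumors.

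In the prolonged tumors 6 members were higher than in vehicle at an unadjusted p under 0.05 (Hspa5, Calr, Dnajc3, Creld2, Pdia3 and Spcs3), where 3.72% of all genes were, and 0 were lower, where 3.06% were. Among the genes with a mean signal over 5, 104 of 1304 were higher and 16 lower. Without cinacalcet tumor 9 the count of 6 became 0, without cinacalcet tumor 10 or vehicle tumor 5, 7 or 10 it became 3, and without vehicle tumor 12 it became 12. In the shorter tumors 1 member was higher (Spcs3), where 1.79% of all genes were, and 0 lower, where 1.24% were. The call of Spcs3 there was lost without any 1 of vehicle tumors 5, 9, 10 and 11 and cinacalcet tumors 5, 7 and 8. Each of the 11 chaperones had a higher mean in prolonged than in vehicle tumors (log2 fold change 0.20 to 1.22), as had each of the 4 disulfide enzymes (0.42 to 0.74). So had 42.9% of all genes and 79.1% of the genes with a mean signal over 5. Of the 4 members downstream of ATF4 and CHOP, 3 had a lower mean (-0.26 to 0.12 over the 4), 2 of these genes (Trib3 and Chac1) being near or below the median signal of the array. Of 24 other targets of ATF4 and CHOP, 16 had a higher mean in the same comparison, with a median log2 fold change of 0.19.

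**Figure D2:**
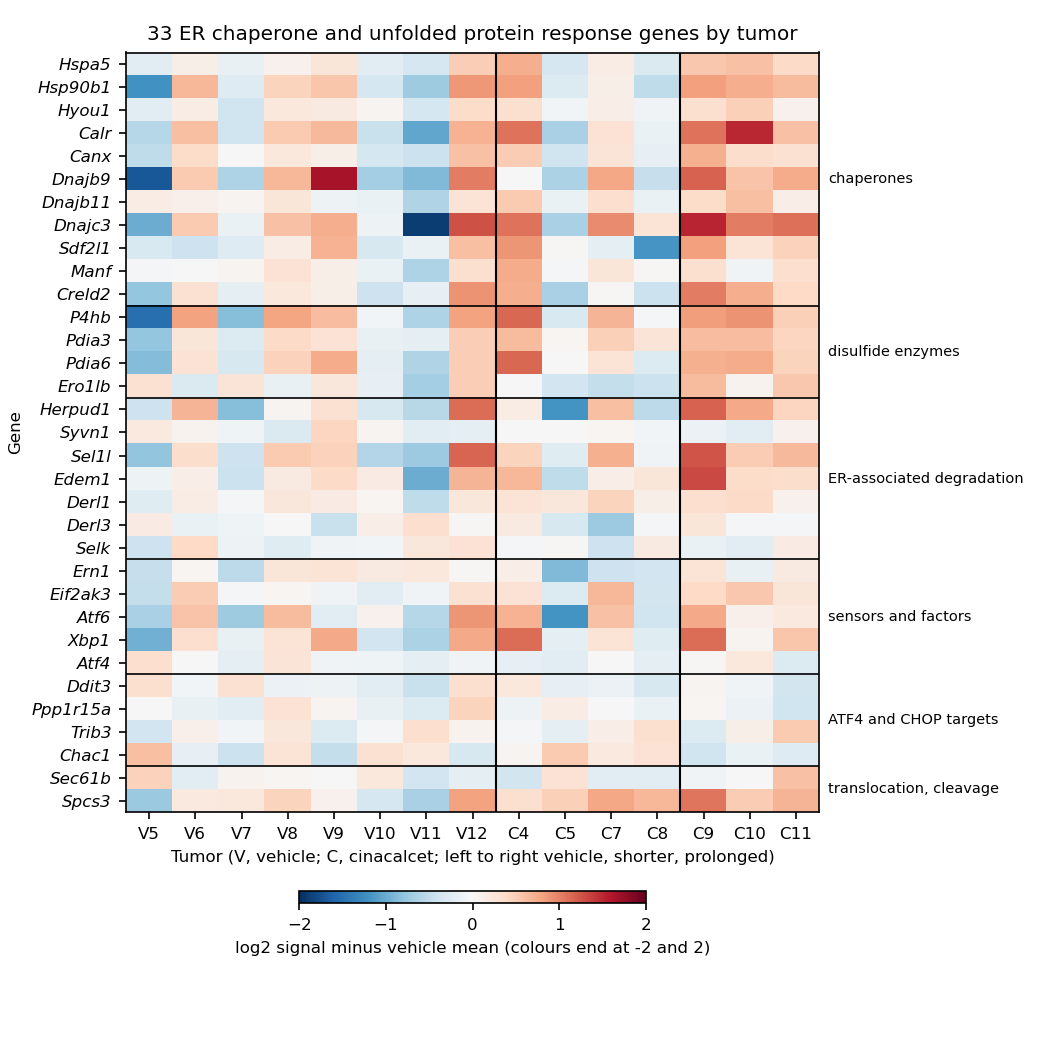
Log2 signal of the 33 members in 15 tumors minus the vehicle mean of each gene (rows, genes by role; columns, tumors with V for vehicle and C for cinacalcet; lines separate vehicle, shorter and prolonged tumors). Chaperones and disulfide enzymes are mostly above the vehicle mean in the prolonged tumors C9, C10 and C11, and also in V12 and C4, while the rows from Atf4 to Chac1 show little colour.

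The mean log2 signal of the 33 genes was 4.26 ± 0.34 (SD, n = 8) in vehicle, 4.32 ± 0.31 (n = 4) in shorter and 4.67 ± 0.13 (n = 3) in prolonged tumors. It was 4.82 in cinacalcet tumor 9, 4.62 in tumor 10 and 4.58 in tumor 11, and 4.69, 4.01, 4.46 and 4.12 in tumors 4, 5, 7 and 8. Vehicle tumors ranged from 3.83 to 4.75 with a median of 4.29, so the prolonged tumors lay in the upper part of the vehicle range and 1 of them above it. The difference between prolonged and vehicle tumors was 0.41 for all 33 genes, 0.62 for the chaperones, 0.58 for the disulfide enzymes, 0.35 for ER-associated degradation, 0.28 for sensors and factors, 0.47 for the 2 translocation and cleavage genes and -0.11 for the ATF4 and CHOP targets. Between shorter and vehicle tumors the same differences lay between -0.06 and 0.21.

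The mean of the 33 genes ran against the median of the whole array (Pearson r = -0.94, n = 15). 22 of the 33 members (66.7%) had a correlation below -0.5 with that median. So had 912 of the 1304 genes with a mean signal over 5 (69.9%) and 19.4% of all genes. The array median split the 15 tumors at its widest gap. 9 tumors had array medians from 1.58 to 1.66, namely vehicle tumors 6, 8, 9 and 12, shorter tumors 4 and 7 and all 3 prolonged tumors, and 6 had medians from 1.74 to 1.85, namely vehicle tumors 5, 7, 10 and 11 and shorter tumors 5 and 8. The mean of the 33 genes was 4.46 to 4.82 in the 9 tumors and 3.83 to 4.12 in the 6. The mean of the chaperones was 5.16 to 5.69 in the 9 and 4.25 to 4.69 in the 6, while that of the ATF4 and CHOP targets overlapped (means of 2.18 and 2.21). Means in the 9 and the 6 were 7.18 and 6.45 for 11 conserved housekeeping genes and 6.33 and 4.80 for the macrophage markers. For fibroblast, endothelial and mural cell markers the means were 7.04 and 5.64, 4.44 and 3.99, and 5.71 and 5.11. For the genes of the neuroblastoma lineage the means were 3.06 and 3.14. They were 4.15 and 3.72 for 96 other genes of the same pathways, and 1.23 and 1.42 for the 12 genes of unrelated tissues. Among the 9 tumors alone, prolonged minus vehicle was 0.12 for the 33 genes. There 0 members were higher at an unadjusted p under 0.05, where 346 of 22179 genes were, with a median log2 fold change of 0.13. With the array median in the model of 15 tumors, 0 members were higher, where 448 of 22179 genes were, and the median was 0.13. Both settings were chosen after the data were seen.

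**Figure D3:**
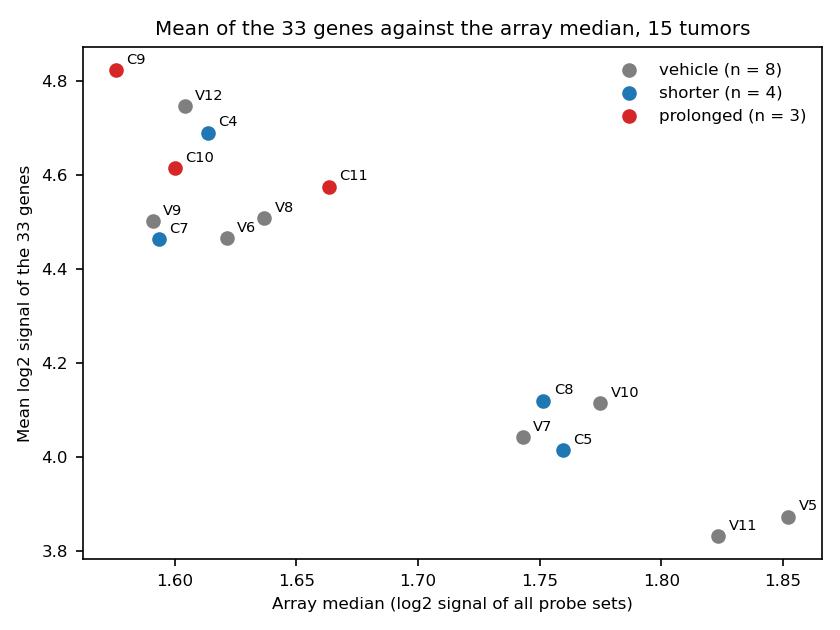
Mean log2 signal of the 33 genes (y axis) against the median log2 signal of all probe sets on the array (x axis) in 15 tumors, coloured by group. 6 tumors with medians of 1.74 or more lie at 4.12 or below, and 9 tumors with medians up to 1.66, the 3 prolonged tumors included, lie at 4.46 or above.

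Transcripts outside the pathway also differed in mean between the groups, and 79.1% of the genes with a mean signal over 5 were higher in prolonged than in vehicle tumors (42.9% of all genes). The 11 conserved housekeeping genes were all higher in prolonged than in vehicle tumors, 3 of them at an unadjusted p under 0.05, and their mean was 6.15 to 7.16 in vehicle, 6.39 to 7.13 in shorter and 7.08 to 7.51 in prolonged tumors. The 10 macrophage markers were all higher as well, 0 of them at an unadjusted p under 0.05, with means of 3.93 to 6.48, 4.89 to 6.63 and 5.96 to 7.10. The mean of the 9 plasma cell markers was 2.34 to 3.60 in vehicle, 2.38 to 2.80 in shorter and 2.46 to 3.99 in prolonged tumors, and 8 of the 9 were higher. The mean of the 10 fibroblast markers was 3.93 to 7.62 in vehicle, 5.36 to 7.31 in shorter and 6.11 to 7.40 in prolonged tumors, 0.53 higher in prolonged than in vehicle tumors, with 8 of the 10 higher. The same difference was 0.03 for 10 endothelial and 0.13 for 10 mural cell markers. The part of these in the levels of the ER genes was not tested.

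Among the chaperones, Hspa5 encodes BiP, the HSP70 of the ER lumen. Its signal in vehicle tumors was 5.57 at the lowest, 5.89 at the median and 6.40 at the highest. It was 6.64, 5.57, 6.06 and 5.62 in shorter tumors 4, 5, 7 and 8 and 6.44, 6.50 and 6.29 in prolonged tumors 9, 10 and 11. The prolonged tumors lay close together near the top of the vehicle range, 2 of them above it, while the shorter tumors spread over the whole range. The prolonged tumors were all among the tumors of lower array median, and shorter tumors 5 and 8 (5.57 and 5.62) were not. The log2 fold change in prolonged tumors was 0.50 ± 0.22 (SE; unadjusted p = 0.0388, adjusted p = 0.689, limma). Over 19 alternative settings it ran from 0.23 to 0.61, with an unadjusted p under 0.05 in 8. In all cinacalcet tumors it was 0.25 ± 0.18 (unadjusted p = 0.184, limma; exact two-sided permutation p = 0.195).

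Calr encodes calreticulin, a calcium-binding lectin chaperone of glycoproteins. Its signal was 5.55, 6.66 and 7.28 at the lowest, median and highest vehicle tumor, 7.68, 5.95, 6.88 and 6.46 in shorter tumors 4, 5, 7 and 8 and 7.68, 8.10 and 7.18 in prolonged tumors 9, 10 and 11. Vehicle values formed a low and a high set of 4 tumors each, the low set being the tumors of high array median, and 2 prolonged tumors exceeded them all. The log2 fold change in prolonged tumors was 1.06 ± 0.41 (unadjusted p = 0.0212, adjusted p = 0.682, limma), the second largest among the members. It was 0.46 (unadjusted p = 0.0528) with the array median in the model and 0.44 (unadjusted p = 0.109) among the 9 tumors. The other lectin chaperone, the membrane-bound calnexin (Canx), had 0.45 ± 0.25 (unadjusted p = 0.0875).

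Dnajc3 encodes p58IPK, a J-domain cochaperone of BiP that also inhibits PERK. Its signal ranged from 2.57 to 5.74 in vehicle tumors and from 3.81 to 5.56 in shorter tumors and was 5.98, 5.49 and 5.57 in the prolonged tumors. The log2 fold change of 1.22 ± 0.54 (unadjusted p = 0.0396) was the largest among the members, with 1 prolonged tumor above the vehicle range. Creld2, a secreted ER stress protein, had 5.07, 4.77 and 4.45 in the prolonged tumors against 3.28 to 4.96 in vehicle and 3.40 to 4.77 in shorter tumors, a log2 fold change of 0.71 ± 0.32 (unadjusted p = 0.0407). Both genes were chosen for these sentences after their values were seen. The other chaperones did not reach an unadjusted p under 0.05 in prolonged against vehicle tumors. Hsp90b1 (GRP94, the HSP90 of the ER) had 0.72, Hyou1 (GRP170, an exchange factor of BiP) 0.29, the BiP cochaperones Dnajb9 and Dnajb11 had 0.83 and 0.37, Sdf2l1 had 0.52 and the secreted factor Manf 0.20.

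Among the disulfide enzymes, Pdia3 encodes ERp57, the thiol oxidoreductase that works with calnexin and calreticulin. Its signal was 5.94, 6.77 and 7.21 at the lowest, median and highest vehicle tumor, 7.35, 6.75, 7.19 and 6.97 in shorter tumors 4, 5, 7 and 8 and 7.33, 7.34 and 7.15 in prolonged tumors 9, 10 and 11. Each of the 7 cinacalcet tumors exceeded the mean of vehicle tumors (6.72), and 3 lay above the vehicle range. The log2 fold change in all cinacalcet tumors was 0.44 ± 0.18 (unadjusted p = 0.0248, adjusted p = 0.909, limma; exact two-sided permutation p = 0.0291). It was 0.55 ± 0.23 (unadjusted p = 0.031) in prolonged and 0.35 ± 0.21 (unadjusted p = 0.12) in shorter tumors. In all cinacalcet tumors it was 0.25 (unadjusted p = 0.0253) with the array median in the model and 0.20 (unadjusted p = 0.0921) among the 9 tumors of lower array median. The protein disulfide isomerase P4hb had 0.73 and Pdia6 0.63 in prolonged tumors, with SEs of 0.47 and 0.34. The oxidase Ero1lb had 3.41, 2.85 and 3.32 in the prolonged tumors, all above the shorter tumors (2.30 to 2.79), and 2.09 to 3.27 in vehicle tumors.

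**Figure D4:**
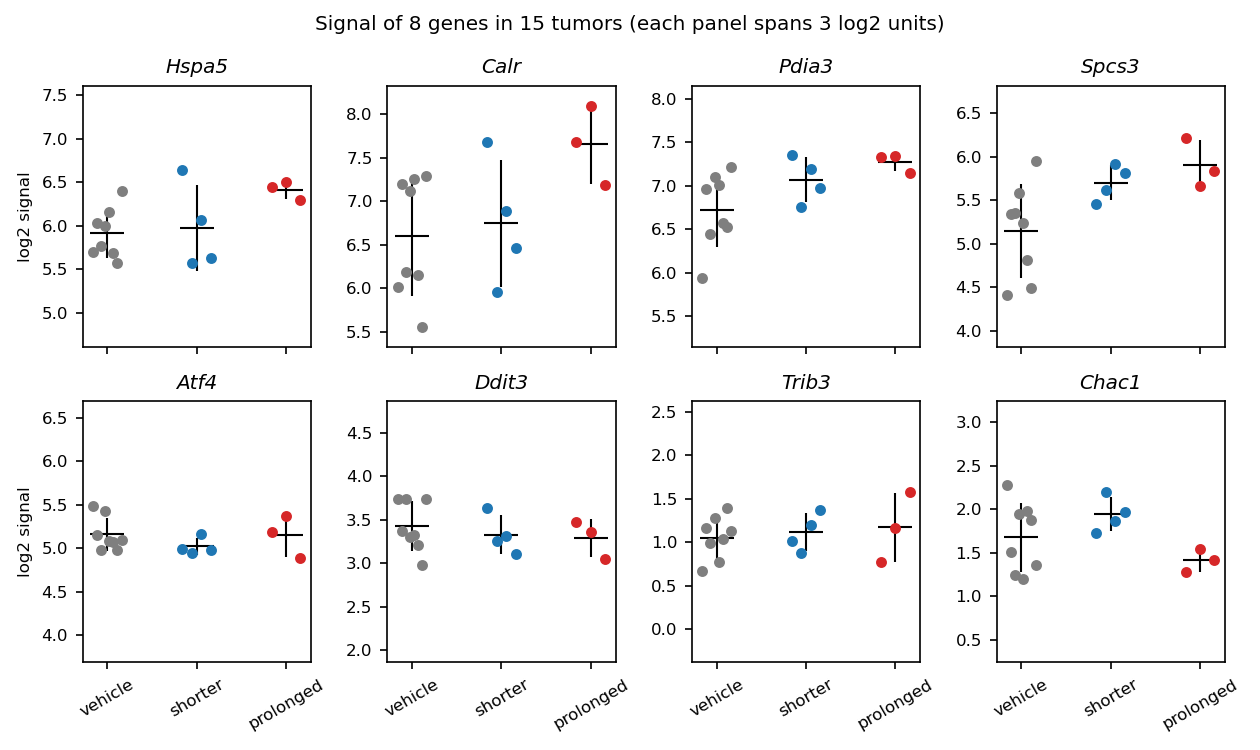
Log2 signal of 8 members in each of 15 tumors (y axis, each panel spanning 3 log2 units; points, tumors; bars, mean and SD) in vehicle (n = 8), shorter (n = 4) and prolonged (n = 3) tumors. Hspa5, Calr and Pdia3 have 2 prolonged tumors above the vehicle range, and Atf4, Ddit3, Trib3 and Chac1 have values that overlap it.

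Of the 7 members of ER-associated degradation, which returns misfolded proteins to the cytosol, 5 had a higher and 2 a lower mean in prolonged than in vehicle tumors. A higher mean was found for 42.9% of all genes and 79.1% of those with a mean signal over 5. The median log2 fold change of the 7 was 0.27, and 0 reached an unadjusted p under 0.05. The values were 0.80 for Sel1l and -0.09 for Syvn1 (HRD1), partners in 1 ubiquitin ligase, 0.79 for its adaptor Herpud1, 0.68 for Edem1, which directs glycoproteins to degradation, and -0.06 for Selk. Derl1, a channel-forming partner of this machinery, had 5.26, 5.85 and 5.99 at the lowest, median and highest vehicle tumor, 6.03, 5.98, 6.20 and 5.87 in shorter tumors 4, 5, 7 and 8 and 6.09, 6.14 and 5.85 in prolonged tumors 9, 10 and 11. Each of the 7 cinacalcet tumors exceeded the mean of vehicle tumors (5.76), and shorter and prolonged tumors had nearly the same mean (6.02 and 6.03). The log2 fold change in all cinacalcet tumors was 0.26 ± 0.12 (unadjusted p = 0.0441, adjusted p = 0.909, limma; exact two-sided permutation p = 0.0218). It was 0.16 (unadjusted p = 0.0999) with the array median in the model and 0.11 (unadjusted p = 0.325) among the 9 tumors of lower array median, and it had an unadjusted p under 0.05 in 8 of 23 alternative settings. Its relative Derl3 was among the 3 members of smallest p with a lower mean in shorter tumors, with 2.05, 2.52 and 2.84 at the lowest, median and highest vehicle tumor, 2.69, 2.19, 1.77 and 2.47 in shorter and 2.74, 2.46 and 2.46 in prolonged tumors. The shorter values overlapped those of vehicle (log2 fold change -0.22 ± 0.17, unadjusted p = 0.218).

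Of the sensors and factors, Ern1 encodes IRE1, the kinase and RNase that splices Xbp1. Its signal was 3.65, 4.29 and 4.45 at the lowest, median and highest vehicle tumor, 4.31, 3.30, 3.77 and 3.79 in shorter tumors 4, 5, 7 and 8 and 4.44, 4.03 and 4.35 in prolonged tumors 9, 10 and 11. 3 of the 4 shorter tumors lay below the vehicle mean of 4.18 and the prolonged tumors lay within the vehicle range. The log2 fold change was -0.39 ± 0.20 (unadjusted p = 0.0715) in shorter and 0.10 ± 0.22 in prolonged tumors. The other sensors, Eif2ak3 and Atf6, had 0.39 ± 0.23 and 0.35 ± 0.42 in prolonged tumors, and Xbp1 had 0.57 ± 0.38. The array probes do not separate spliced from unspliced Xbp1, and splicing, phosphorylation and cleavage of the sensors were not measured here.

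Atf4, the factor at the centre of the PERK route, is regulated mainly in translation. Its signal was 4.98, 5.09 and 5.49 at the lowest, median and highest vehicle tumor, 4.99, 4.95, 5.17 and 4.98 in shorter tumors 4, 5, 7 and 8 and 5.19, 5.37 and 4.89 in prolonged tumors 9, 10 and 11. The groups overlapped throughout, and the log2 fold change was -0.01 ± 0.15 (unadjusted p = 0.928) in prolonged and -0.09 ± 0.11 (unadjusted p = 0.452) in all cinacalcet tumors.

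Its target Ddit3 encodes CHOP, a factor of prolonged ER stress linked to cell death. Its signal was 2.98, 3.35 and 3.74 at the lowest, median and highest vehicle tumor, 3.64, 3.26, 3.32 and 3.11 in shorter tumors 4, 5, 7 and 8 and 3.48, 3.36 and 3.05 in prolonged tumors 9, 10 and 11. All 7 cinacalcet values lay within the vehicle range (log2 fold change in prolonged tumors -0.13 ± 0.18, unadjusted p = 0.483). Trib3, a pseudokinase induced by ATF4 and CHOP, was the dimmest member and lay below the median signal of the array, where a decrease may not show, with 0.67, 1.08 and 1.39 at the lowest, median and highest vehicle tumor, 1.01, 0.87, 1.19 and 1.37 in shorter and 0.78, 1.17 and 1.57 in prolonged tumors (log2 fold change 0.12 ± 0.19, unadjusted p = 0.542).

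Ppp1r15a encodes GADD34, which restores translation by directing a phosphatase to eIF2-alpha. Its signal was 2.36, 2.57 and 3.08 at the lowest, median and highest vehicle tumor, 2.53, 2.78, 2.65 and 2.50 in shorter and 2.67, 2.52 and 2.24 in prolonged tumors, with a log2 fold change in prolonged tumors of -0.16 ± 0.17 (unadjusted p = 0.354). Chac1, a glutathione-degrading enzyme downstream of ATF4, had 1.20, 1.70 and 2.28 at the lowest, median and highest vehicle tumor, 1.73, 2.20, 1.87 and 1.97 in shorter tumors 4, 5, 7 and 8 and 1.28, 1.54 and 1.41 in prolonged tumors 9, 10 and 11. Prolonged tumors lay below all shorter tumors, and both lay within the vehicle range.

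Of the genes of translocation and signal peptide cleavage, Spcs3 encodes a subunit of the signal peptidase. The study named it from these same arrays, so its values are no independent evidence. Its signal was 4.40, 5.29 and 5.95 at the lowest, median and highest vehicle tumor, 5.46, 5.62, 5.92 and 5.81 in shorter tumors 4, 5, 7 and 8 and 6.22, 5.66 and 5.83 in prolonged tumors 9, 10 and 11. Each of the 7 cinacalcet tumors exceeded the mean of vehicle tumors (5.15), and only prolonged tumor 9 lay above the vehicle range. It had the smallest p among the members in all cinacalcet tumors (log2 fold change 0.64 ± 0.21, unadjusted p = 0.00755, adjusted p = 0.909, limma; exact two-sided permutation p = 0.0126), where the smallest adjusted p over all probe sets was 0.0852. The values were 0.76 ± 0.28 (unadjusted p = 0.0162) in prolonged and 0.55 ± 0.25 (unadjusted p = 0.0445) in shorter tumors, and with the array median in the model 0.46 (unadjusted p = 0.0126) in all cinacalcet tumors. Among the 9 tumors of lower array median it was 0.29 (unadjusted p = 0.163). Sec61b, a subunit of the translocation channel, was near the floor with a log2 fold change of 0.17 ± 0.20 in prolonged tumors.

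**Figure D5:**
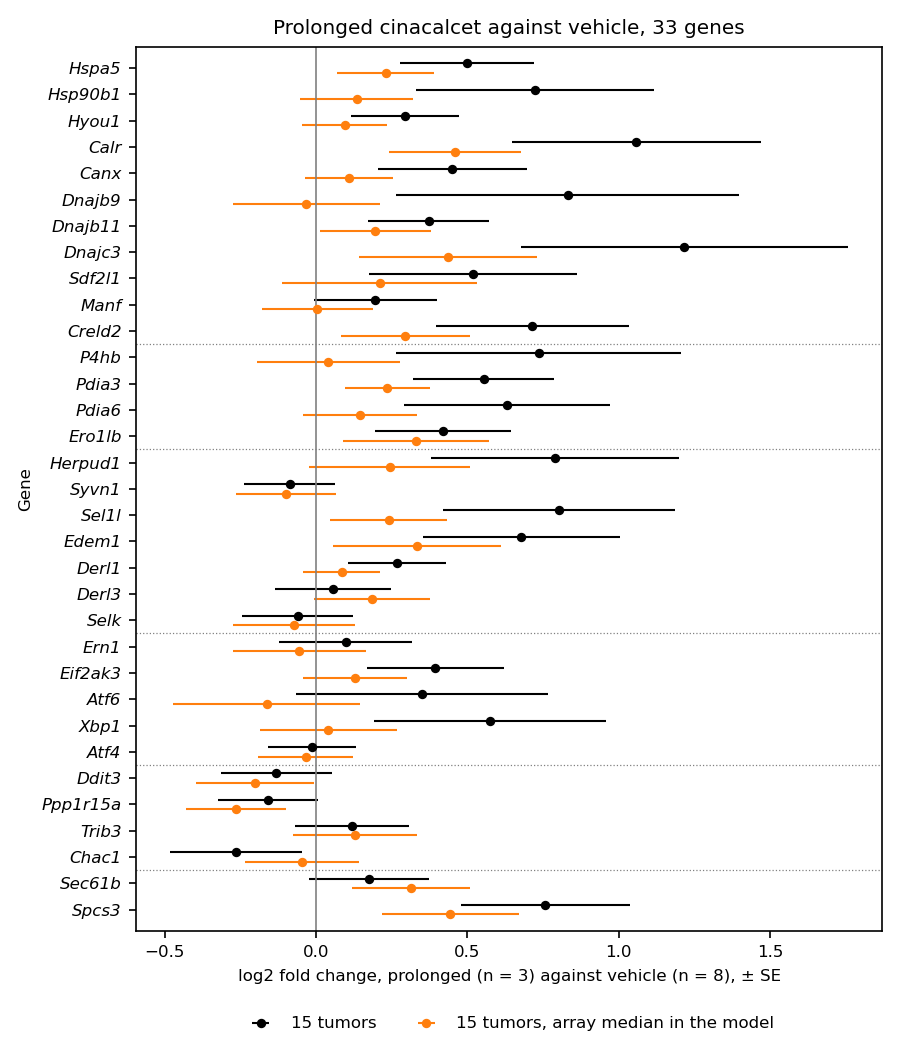
Log2 fold change ± SE of the 33 members in prolonged (n = 3) against vehicle (n = 8) tumors, from the fit of 15 tumors (black) and from the same fit with the array median in the model (orange); dotted lines separate roles. The values of chaperones, disulfide enzymes and most degradation genes lie above 0 in black and nearer to 0 in orange, with 27 of 33 positive in black and 24 in orange. Over all genes 42.9% were positive in the first fit and 46.5% in the second, and 79.1% of those with a mean signal over 5 in the first.

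The direct comparison of prolonged with shorter tumors gave 3 members higher at an unadjusted p under 0.05, where 2.24% of all genes were, and 1 lower, where 2.95% were. Herpud1 was 1.03 ± 0.46 higher (unadjusted p = 0.0408), Creld2 0.80 ± 0.36 higher (unadjusted p = 0.0428) and Ero1lb 0.74 ± 0.25 higher (unadjusted p = 0.0108). Chac1 was lower by a log2 fold change of -0.53 ± 0.25 (unadjusted p = 0.0469). These genes were named after their values were seen, and each had an adjusted p of 0.864 (limma). With the array median in the model, Herpud1, Creld2 and Ero1lb kept an unadjusted p under 0.05 (0.64, 0.50 and 0.67) and Chac1 did not (-0.37). In that setting 462 of 22179 genes were higher and 567 lower at that p. Among the 9 tumors of lower array median only Ero1lb kept it (0.65, unadjusted p = 0.048), where 264 of 22179 genes were higher and 582 lower. The count of 3 became 7 without cinacalcet tumor 4 and 1 without tumor 5, 8 or 9, and that of Chac1 was lost without any 1 of the treated tumors other than tumor 4.

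The 10 members with an ERSE in the promoter had a median log2 fold change of 0.57 in prolonged against vehicle tumors. 4 of them, all chaperones, were higher at an unadjusted p under 0.05. The 17 members with a promoter but neither ERSE nor ERSE-II had a median of 0.37, with 1 gene (Pdia3) higher. At that p, 3.72% of all genes and 104 of the 1304 genes with a mean signal over 5 were higher. Between shorter and vehicle tumors the medians were 0.04 and 0.06. The genes with an ERSE were also the brighter ones, with a median signal of 5.29 against 3.78. Outside the members, 25 genes had an ERSE in a promoter, 17 of them with a probe set of their own. Their median signal was 0.92, below the median of 1.69 over all probe sets, where a difference may not show. Their median log2 fold change was -0.08 in prolonged tumors, beside -0.05 over all genes, with 0 of 17 at an unadjusted p under 0.05. Whether the motif bears on these differences was not tested.

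Within the 9 tumors of lower array median, 26 of the 55 pairs of chaperone genes had a Pearson correlation over 0.5, beside 3 of 6 pairs of disulfide enzymes, 4 of 21 pairs in ER-associated degradation, 1 of 10 among sensors and factors, 1 of 6 among the ATF4 and CHOP targets and 124 of 528 over all members. Among the 96 other genes of the same pathways it was 616 of 4560 pairs, and the lowest correlation among the chaperones was -0.62. In the 6 tumors of higher array median the counts were 18 of 55 for the chaperones, 127 of 528 over all members and 1073 of 4560 for the other genes. These shares are a description over tumors of 3 groups, split after the data were seen, and co-regulation was not tested.

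Of 96 other genes of the same pathways with a probe set of their own, 13 were higher and 1 lower in prolonged than in vehicle tumors at an unadjusted p under 0.05, where 3.72% and 3.06% of all genes were and 104 of the 1304 genes with a mean signal over 5 were higher. The median log2 fold change was 0.22. With the array median in the model 4 were higher (Hspa13, Slc7a5, Stt3b and Uggt1) and 2 lower, where 448 and 453 of 22179 genes were, with a median of 0.00. Among the 9 tumors of lower array median 1 was higher (Hspa13) and 2 lower, where 346 and 492 of 22179 genes were. By role the counts of higher genes were 5 of 27 in folding and N-glycosylation, 3 of 16 among sensors and factors, 3 of 24 among targets of ATF4 and CHOP, 2 of 14 in translocation and cleavage and 0 of 15 in degradation. The 4 of smallest p were Hspa13, an ER HSP70 relative (0.59 ± 0.18, unadjusted p = 0.00563), the amino acid transporter Slc7a5, an ATF4 target (0.64 ± 0.21, unadjusted p = 0.00918), the oligosaccharyltransferase subunit Stt3b (0.51 ± 0.18, unadjusted p = 0.0124) and the protease Mbtps1 (S1P), which cleaves ATF6 (0.56 ± 0.21, unadjusted p = 0.0157). The lower gene was Stc2, a secreted glycoprotein and ATF4 target (-0.43 ± 0.19, unadjusted p = 0.0383). In all cinacalcet tumors 5 of the 96 were higher, where 1.86% of all genes were. With the array median in the model 1 (Stt3b) was higher, where 425 of 22179 genes were. The 5 were led by Stt3b (0.38 ± 0.14), Mbtps1 (0.39 ± 0.16), the folding sensor Uggt1 (0.59 ± 0.26) and Edem3 (0.33 ± 0.15), and 1 gene was lower (Stc2, -0.31 ± 0.14). In shorter tumors 0 were higher, where 1.79% of all genes were, and 1 was lower (Wfs1, an ER membrane protein, -0.42 ± 0.19). Prolonged exceeded shorter tumors for 3, where 2.24% of all genes were, namely Srprb, a subunit of the signal recognition particle receptor (0.73 ± 0.26), Hspa13 (0.57 ± 0.20) and Nfe2l2, a factor of the oxidative stress response that PERK can phosphorylate (1.07 ± 0.48). None passed the adjusted test.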

How the data were processed

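RNA of 16 xenografts was extracted with Trizol, labelled and hybridised to mouse gene arrays, and the authors deposited log2 signals after RMA (background correction, quantile normalization and summary per probe set), 1 value for each of 40543 probe sets and array. RMA, limma 3.24 and R 3.2 are listed in the submitters' processing notes. Quantile normalization makes arrays alike in distribution before the summary, and the deposited medians still ran from 1.58 to 1.85. The number of arrays is among the limits on the precision. Vehicle tumors (8) and cinacalcet tumors (7, without tumor 6) were compared with limma 3.58.1 in R 4.3.3 (empirical Bayes), and vehicle, shorter and prolonged tumors in 1 fit of 3 groups. P-values were adjusted by Benjamini-Hochberg over all probe sets, with no filter, at a threshold of 0.05. The fit was tested on simulated data. The members and gene lists were chosen with earlier results of these data known.

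Values in full were given for the transcripts of this pathway that the study measured by RT-qPCR in human cells (Hspa5, Atf4, Ddit3, Trib3, Calr), for Spcs3, and for the 3 members of smallest p in each direction against vehicle. Of the other pathway genes, at most 4 in each direction were named. The groups prolonged and shorter follow the study's description of tumors 9 to 11, as the labels give treatment and number only. Gene symbols came from the platform annotation, coordinates and promoters from RefSeq (GRCm38.p6). Alternatives were the methods' filter (upper 50% by signal, then upper 50% by variability), single-gene probe sets, tumor 6, median-centred arrays, a variance trend, array weights, a replicate block and each tumor left out.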

Additional observations from a re-analysis of the deposited data

Results flagged for a closer look

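Prolonged and shorter tumors differed at an unadjusted p under 0.05 in 4 members. The log2 difference, prolonged minus shorter, was 1.03 for Herpud1, 0.80 for Creld2, 0.74 for Ero1lb and -0.53 for Chac1, none past the adjusted threshold (limma, adjusted p = 0.864 for each). For Chac1 the 4 shorter tumors all lay above and the 3 prolonged tumors all below the vehicle mean of 1.68. The mean of the 4 ATF4 and CHOP targets showed the same arrangement, with a difference of -0.16 that was not tested. That mean includes Chac1 and so is no separate observation. The differences of the 4 genes ran from -0.53 to 0.06, and 1 of them was positive.

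Cinacalcet tumor 6 was not used in the comparisons, since the study judged it an outlier in quality control of the arrays. It exceeded all 8 vehicle tumors in 8 of the 33 members and lay below them all in 1. Over all genes 10.9% lay above and 13.7% below the vehicle range in this tumor, and over the 1304 genes with a mean signal over 5 these shares were 22.5% and 13%. Of the members given in full, it had a log2 signal of 6.68 for Hspa5 (highest vehicle tumor 6.40), 7.46 for Calr (7.28), 7.69 for Pdia3 (7.21) and 4.58 for Ern1 (4.45). Its mean was 6.23 over the disulfide enzymes (highest vehicle tumor 5.97), 4.80 over sensors and factors (4.77) and 3.63 over translocation and cleavage (3.47). Its array median was 1.67.

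No tumor stood far from the others of its group by Dixon's criterion in the 60 sets of values looked at, from the vehicle, cinacalcet and shorter groups. Chance would flag about 1 in 20 independent sets, but these sets share tumors and genes. The prolonged tumors were not looked at as a group of their own.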

How the results depend on the processing

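Counts are of members at an unadjusted p under 0.05; 0 passed the adjusted threshold in any of the 4 comparisons under any setting run. Against the counts of higher members in the report (3 in all cinacalcet, 6 in prolonged and 1 in shorter against vehicle, 3 in prolonged against shorter), the methods' filter, which keeps 17 members, gave 1, 3 and 0 against vehicle and took the 1 lower member of prolonged against shorter to 0. The 9 tumors of lower array median gave 0, 0, 0 and 1, and 0 lower in the last. The array median as a covariate, like the 9 tumors chosen after the data were seen, gave 2 in all cinacalcet, 0 in prolonged and 2 higher and 1 lower in shorter against vehicle, and 0 lower in prolonged against shorter. Over all 22179 genes, with the comparisons in the same order, 295, 346, 444 and 264 were higher among the 9 tumors and 425, 448, 626 and 462 with the covariate. Arrays centred on their median gave 0 in shorter against vehicle and 1 in prolonged against shorter, as did array weights. Including tumor 6 gave 2 and the intensity trend with robust variances 0 in shorter against vehicle. The cause of each change was not tested beyond the fewer members or tumors that a setting keeps.

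The replicate block used tumors 5 and 7 to 11 of both groups and gave 6 higher in all cinacalcet, 13 in prolonged and, for prolonged against shorter, 5 higher and 0 lower. The shared numbers did not pair the tumors, since only 2 of the 6 same-numbered pairs deviated together (correlation over 0.1), and not every tumor correlated best with its own number.

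Leaving out each tumor gave 2 to 5, 0 to 12 and 0 to 1 higher members against vehicle, 0 to 1 lower in shorter against vehicle, and 1 to 7 higher and 0 to 1 lower in prolonged against shorter. The mean of the 33 genes in prolonged minus vehicle was 0.33 to 0.48 over these and 0.40 to 0.50 under the other planned settings, and shorter minus vehicle was -0.06 to 0.16, with -0.09 for the median of the genes. Changes of sign among the named genes, in prolonged against vehicle, were in Atf4 (0.079 with centred arrays, 0.098 with the replicate block, -0.12 to 0.12 leaving out tumors), Ddit3 (0.12 with the replicate block) and Trib3 (-0.082 to 0.31 leaving out tumors, negative without cinacalcet tumor 11), all with unadjusted p over 0.05.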
